A study of Mus musculus with 12 samples.

Results

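Mesothelial marker genes were followed across 12 RNA sequencing libraries of ImPSC-1, a mouse line that the labels describe as pancreatic mesenchymal cells and the study as stellate cells. The set held 9 genes chosen by name from the deposited count table: Upk3b, Gpm6a, Nkain4, Upk1b, Bnc1, Msln, Wt1, Lrrn4 and Muc16. All 9 were found among the 49671 gene entries, and 6 of them were among the 15271 genes with enough counts for testing. Stable derivatives of the line formed 4 groups of 3 libraries: shCtrl, labelled wild type and carrying the PLKO-1 control, shKitl with knockdown of Kitl by a hairpin, Egfp_OE overexpressing Egfp, and Kitl_OE overexpressing Kitl. The product of Kitl is stem cell factor, which binds the receptor KIT. All were grown in DMEM with serum. Each sample description also carries a P number whose meaning the labels do not give: shCtrl has 14, 15 and 16, shKitl has 13, 14 and 15, Egfp_OE has 17, 18 and 19, and Kitl_OE has 18, 19 and 20. Whether replicate libraries stem from separate cultures or clones is not stated, so the tests speak only to the scatter among these samples, and that scatter may be technical.

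Mesothelium is the epithelial sheet that covers the pancreas and the other organs of the body cavities and lines the cavity walls. It arises from the coelomic epithelium, joins epithelial features such as an apical surface and junctions to mesenchymal ones such as vimentin, and can give rise to fibroblast-like cells during development and injury. The markers have different roles. Upk3b and Upk1b are uroplakins, membrane proteins named for the urothelium, and Gpm6a and Nkain4 encode membrane proteins best known from neurons. Msln and Muc16 encode the surface protein mesothelin and the large mucin that binds it, Lrrn4 encodes a leucine-rich repeat membrane protein, and Wt1 and Bnc1 encode zinc finger transcription factors.

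The 4 membrane genes lay on different chromosomes (GRCm38): Upk3b at chr5:136038496-136046487 (plus strand), Gpm6a at chr8:54954843-55060871 (plus), Nkain4 at chr2:180934772-180954699 (minus) and Upk1b at chr16:38773184-38800328 (minus). Bnc1 lay at chr7:81966672-81992292 (minus), Msln at chr17:25748613-25754378 (minus), Wt1 at chr2:105126529-105173616 (plus), Lrrn4 at chr2:132868305-132880891 (minus) and Muc16 at chr9:18495455-18674530 (minus). All are protein-coding genes, with the identifiers ENSMUSG00000042985 (Upk3b), ENSMUSG00000031517 (Gpm6a), ENSMUSG00000027574 (Nkain4), ENSMUSG00000049436 (Upk1b), ENSMUSG00000025105 (Bnc1), ENSMUSG00000063011 (Msln), ENSMUSG00000016458 (Wt1), ENSMUSG00000043110 (Lrrn4) and ENSMUSG00000109564 (Muc16). Promoter windows from RefSeq on GRCm38.p6 were matched for 5 of the 9 genes. The 250 bases before the RefSeq start are shown for the 3 matched genes that moved together, with Lrrn4, which stayed near 0 counts, set beside them. For Gpm6a both RefSeq starts differ from the gene start given above: that of window 1 lies 175409 bases before it and that of window 2 lies 115 bases before it. The RefSeq start lay at the gene start for Upk3b and 7 bases before it for Bnc1 and, at chr2:132880862, inside the annotated gene for Lrrn4. Capitals mark letters that matched any of 8 motifs, spelled out after the sequences and searched on both strands.
Upk3b, chr5:136038246-136038495, plus strand: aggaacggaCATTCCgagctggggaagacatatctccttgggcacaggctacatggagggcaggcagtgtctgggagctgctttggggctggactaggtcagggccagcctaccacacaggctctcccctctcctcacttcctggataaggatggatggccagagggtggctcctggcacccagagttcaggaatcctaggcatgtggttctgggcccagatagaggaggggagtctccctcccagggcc
Gpm6a, window 1, chr8:54779184-54779433, plus strand: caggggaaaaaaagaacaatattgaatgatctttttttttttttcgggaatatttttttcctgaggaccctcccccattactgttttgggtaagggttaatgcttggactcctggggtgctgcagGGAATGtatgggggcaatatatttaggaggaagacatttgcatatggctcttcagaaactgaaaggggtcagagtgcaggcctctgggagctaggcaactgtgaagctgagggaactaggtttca
Gpm6a, window 2, chr8:54954478-54954727, plus strand: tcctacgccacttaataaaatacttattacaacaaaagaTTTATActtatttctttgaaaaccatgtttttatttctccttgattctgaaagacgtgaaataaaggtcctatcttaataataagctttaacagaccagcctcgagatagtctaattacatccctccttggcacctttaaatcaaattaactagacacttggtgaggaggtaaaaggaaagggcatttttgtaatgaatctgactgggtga
Bnc1, chr7:81992300-81992549, minus strand: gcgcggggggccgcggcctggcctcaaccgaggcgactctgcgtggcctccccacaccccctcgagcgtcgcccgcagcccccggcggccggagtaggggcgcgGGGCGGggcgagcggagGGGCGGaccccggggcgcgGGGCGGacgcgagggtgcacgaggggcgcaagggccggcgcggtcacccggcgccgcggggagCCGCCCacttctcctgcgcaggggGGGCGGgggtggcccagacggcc
Lrrn4, chr2:132880863-132881112, minus strand: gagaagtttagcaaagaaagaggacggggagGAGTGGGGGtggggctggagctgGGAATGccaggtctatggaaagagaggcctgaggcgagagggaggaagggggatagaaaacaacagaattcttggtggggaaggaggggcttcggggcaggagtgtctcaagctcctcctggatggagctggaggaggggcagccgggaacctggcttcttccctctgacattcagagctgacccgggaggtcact

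The letters GGAATG, a motif of TEAD factors, stood in the Upk3b window 241 bases before the RefSeq start, from which each window's distances are counted, in the further Gpm6a window at 125 bases and in the Lrrn4 window at 196 bases, and 12.6% of all 32851 windows held them. The Lrrn4 window also held the WT1 motif, spelled GNGTGGGNG, at 219 bases (12.7% of all windows). The nearer Gpm6a window held a TATA box, spelled TATAAA, at 211 bases (12.4% of all windows). The Bnc1 window stood apart in composition, with a GC content of 83.6% and 39 CpG pairs, against a median GC content of 52.4% and a median of 6 CpG pairs over all windows. It held 5 copies of the GC box, spelled GGGCGG, which 32.7% of all windows held at least once. The motif CCAAT (33.8% of all windows) was in none of the matched windows, nor was the AP-1 motif, spelled TGANTCA (6.75%). The GATA motif, spelled AGATAA (9.99%), and the CArG box (1.47%) were also in none of them, and the Muc16 window held none of the 8 motifs. No motif overlapped another. These are matches of letters in a fixed window and were not tested against the expression values.

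Libraries held between 24979742 and 33517686 counts in genes. Levels are given in CPM, counts relative to the TMM-scaled library total. Kitl ranged from 25.1 to 30.3 CPM in the shKitl libraries and from 73.5 to 76.4 in shCtrl (log2 -1.46, adjusted p = 0.121 by edgeR). It ranged from 114 to 128 CPM in Kitl_OE and from 31.8 to 72.5 CPM in Egfp_OE (log2 1.06, adjusted p = 0.00836), where the lowest value was that of replicate 2. That same library had the highest share of spike-in reads, 1.35%. The 11 stellate and fibroblast markers of the labelled cell type summed to between 5154 and 23195 CPM. The sum does not show that each was present. In shCtrl Vim stood at a mean of 2471 CPM, while Lum had as few as 1 count and Des as few as 16. The 6 tested markers kept their calls in Kitl_OE against Egfp_OE when any library was left out in turn.

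The comparison of Kitl_OE with Egfp_OE asked what overexpressed Kitl changes in these cells. The membrane markers Gpm6a, Upk3b, Nkain4 and Upk1b were close to absent in Egfp_OE and abundant in each Kitl_OE library. Bnc1 and Msln were expressed in both groups and higher in Kitl_OE. Wt1, Lrrn4 and Muc16 stayed at a few counts in both. By edgeR's quasi-likelihood test, with p-values adjusted over all 15271 genes, the 6 tested markers rose, where 34.3% of all tested genes were called, 15.4% as higher and 18.9% as lower. The libraries of the 2 groups did not overlap for any of the 6, nor for 50.5% of all tested genes. Upk1b passed the count filter only through its Kitl_OE libraries, so the count over the tested genes is a description of the expressed markers and does not stand for all 9. In bulk libraries more cells of a type and more RNA per cell cannot be told apart.

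Upk3b had 4, 11 and 6 counts in the Egfp_OE libraries and 3836, 5302 and 2852 in the Kitl_OE libraries. In CPM these were 0.114, 0.441 and 0.201 against 149, 194 and 97.4. Every Kitl_OE library lay far above every Egfp_OE library. The log2 fold change was 9.23 (SE 1.31, adjusted p = 0.000379), the rank 3 increase of 15271 genes.

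Gpm6a, a tetraspan glycoprotein of the proteolipid family, had 7, 8 and 1 counts in Egfp_OE and 3221, 5764 and 4235 in Kitl_OE, or 0.2, 0.321 and 0.0336 CPM against 125, 211 and 145 CPM. The groups were again far apart, and Egfp_OE replicate 3 rested on a single read count. The log2 fold change was 9.77 (SE 1.00, adjusted p = 4.86e-05), rank 2 of all tested genes.

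Nkain4, a small membrane protein that interacts with the sodium pump, had 2, 5 and 4 counts in Egfp_OE and 1525, 1892 and 744 in Kitl_OE. Its Kitl_OE libraries stood at 59.3, 69.3 and 25.4 CPM, replicate 3 being the lowest there. The log2 fold change was 8.64 (SE 1.09, adjusted p = 0.000178). Upk1b, a tetraspanin that pairs with the Upk3 proteins in urothelium, had 2, 3 and 0 counts in Egfp_OE and 248, 478 and 351 in Kitl_OE. It was the lowest of the 4 membrane genes in Kitl_OE, between 9.65 and 17.5 CPM, with no overlap between groups. Its log2 fold change was 7.75 (SE 1.17, adjusted p = 0.000563). As Upk1b passed the count filter only through its Kitl_OE libraries, this p-value is a description and not separate evidence.

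Bnc1, basonuclin 1, had 602, 295 and 194 counts in Egfp_OE and 2412, 2549 and 1567 in Kitl_OE, or 17.2, 11.8 and 6.51 CPM against 93.9, 93.4 and 53.5 CPM. It was thus expressed in the control line as well, and the groups did not overlap. The increase was 6.76-fold (log2 2.76, SE 0.607, adjusted p = 0.00519). Msln had 464, 445 and 283 counts in Egfp_OE and 567, 1221 and 1280 in Kitl_OE, or 13.3, 17.8 and 9.50 CPM against 22.1, 44.7 and 43.7 CPM. Kitl_OE replicate 1 lay close above the highest Egfp_OE library, and the others lay further up. The increase was 2.72-fold (log2 1.45, SE 0.329, adjusted p = 0.00617).

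Libraries with P numbers 18 and 19 existed in both lines. At P 18 the ratio of Kitl_OE to Egfp_OE was 339 for Upk3b (95% counting interval 189 to 679) and 391 for Gpm6a (198 to 906), and at P 19 it was 965 (443 to 2630) for Upk3b. These intervals cover counting error only. Bnc1 was 7.94-fold higher at P 18 and 14.3-fold higher at P 19, so the direction was shared at both numbers. For Msln the ratio was 1.24 (1.09 to 1.40) at P 18 and 4.71 (4.14 to 5.38) at P 19. With these 4 libraries alone the Msln call was lost (log2 1.28, adjusted p = 0.191), while the other 5 markers kept theirs. In that fit 8.82% of all tested genes were called, 4.29% as higher. Upk3b, Gpm6a, Nkain4 and Upk1b passed the count filter of that fit only through their Kitl_OE libraries, so their calls there are a description. An exact permutation test of 3 against 3 libraries gave 0.1 (two-sided) for each of the 6, the smallest p it can give.

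**Figure D1:**
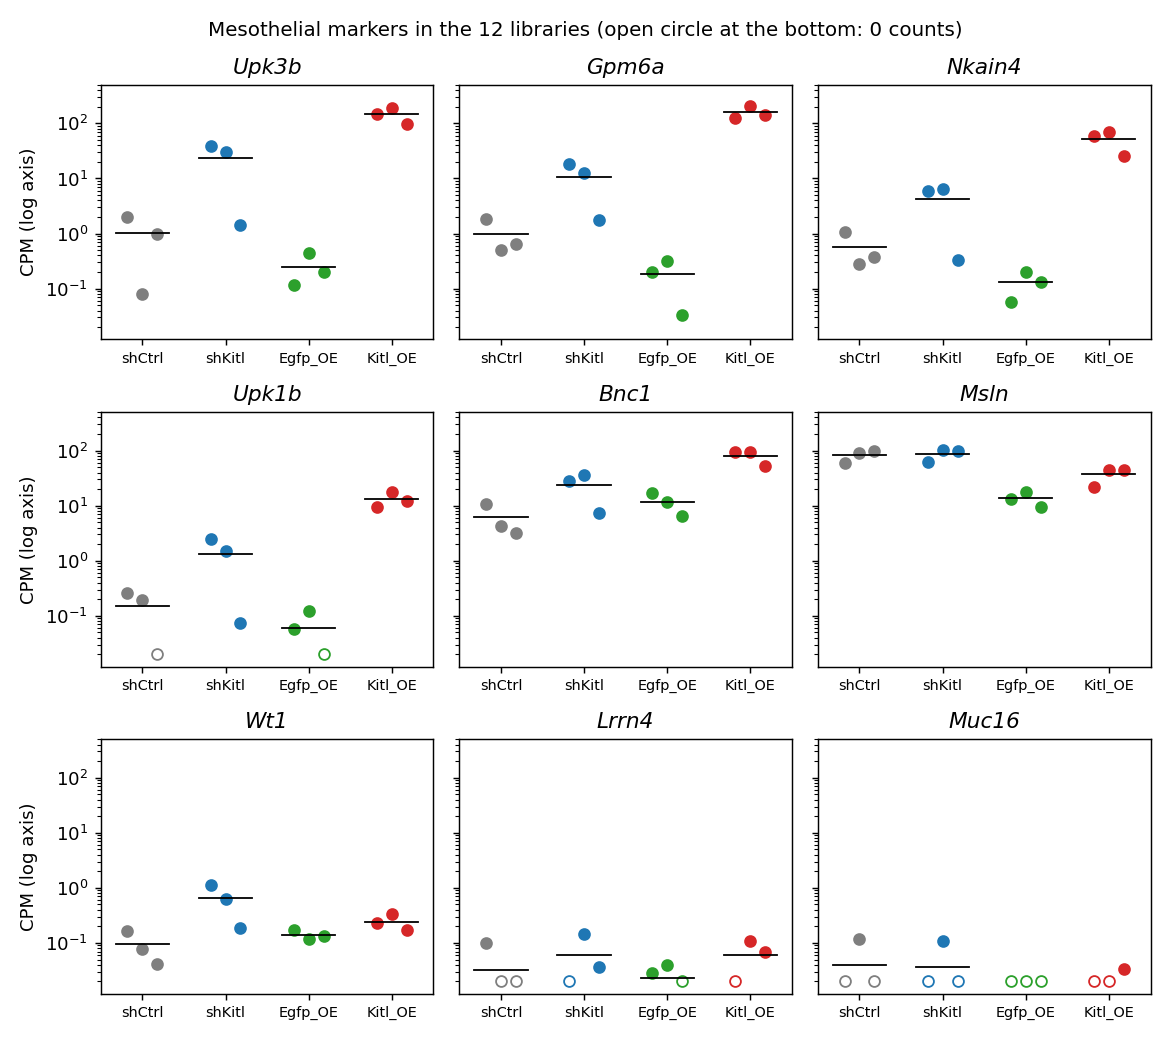
CPM (log axis) of the 9 mesothelial markers in each library, with 3 points per group, a line at the group mean and open circles at the bottom for 0 counts. Upk3b, Gpm6a, Nkain4 and Upk1b are highest in the Kitl_OE libraries, Msln is lowest in Egfp_OE, and Wt1, Lrrn4 and Muc16 lie near the bottom in every group.

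Wt1 had 6, 3 and 4 counts in Egfp_OE and 6, 9 and 5 in Kitl_OE. In CPM the groups overlapped. Lrrn4 had 1, 1 and 0 counts against 0, 3 and 2, and Muc16 had 0, 0 and 0 against 0, 0 and 1. Fitted without the count filter, over 29709 genes, edgeR gave adjusted p-values of 0.554 for Wt1, 0.583 for Lrrn4 and 0.554 for Muc16. For Lrrn4 and Muc16 a difference was not detectable at this depth.

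Msln was present in all 4 lines, and its order differed from that of the other markers. In TPM, a unit corrected for gene length and taken as deposited, Msln was the highest marker in 3 lines. Its level was 119 ± 20.4 TPM in shCtrl, 125 ± 38.4 TPM in shKitl and 17.7 ± 2.41 TPM in Egfp_OE (SD, n = 3 each). In Kitl_OE the order of the levels was Gpm6a at 144 ± 44.2 TPM, Upk3b at 119 ± 39.3, Nkain4 at 118 ± 51.9, Msln at 50.7 ± 19.5, Bnc1 at 49.3 ± 12.9 and Upk1b at 21.3 ± 7.17. Gpm6a, Upk3b and Nkain4 did not differ beyond their spread, nor did Msln and Bnc1. In shCtrl the order after Msln was Bnc1 at 4.20 TPM, Nkain4 at 1.47, Gpm6a at 0.989, Upk3b at 0.907 and Upk1b at 0.280. Neighbours in that order overlapped in range, but Nkain4 (0.683 to 2.84 TPM) lay above Upk1b (0 to 0.498 TPM) in all libraries.

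The knockdown comparison, shKitl against shCtrl, asked what lower Kitl does in the same stellate line. The group means of Upk3b, Gpm6a, Nkain4, Upk1b and Bnc1 were higher in shKitl, but the libraries of the 2 groups overlapped and no gene passed edgeR's test. Among all 15271 genes edgeR called 0%, while 15.8% of them (2417 genes) had an unadjusted p under 0.05, as did 5 of the 6 tested markers. DESeq2 called 428 genes, 2.8% of those it tested (2.05% as higher), among them Upk3b, Gpm6a and Bnc1.

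Upk3b had 60, 2 and 23 counts in shCtrl replicates 1 to 3 and 1118, 840 and 38 in the shKitl replicates. In CPM the values were 1.97, 0.0788 and 0.975 against 39.7, 30.6 and 1.42. Replicates 1 and 2 of shKitl were high and replicate 3 lay within the control range. The log2 fold change was 4.53 (95% interval 2.25 to 6.81, adjusted p = 0.176).

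Gpm6a had 56, 13 and 15 counts in shCtrl and 517, 338 and 47 in shKitl (log2 3.40, adjusted p = 0.151). Nkain4 had 32, 7 and 9 against 167, 176 and 9 (log2 2.85, adjusted p = 0.216). For both genes shKitl replicate 3 lay within the control range, as it did for Upk3b. Upk1b had 8, 5 and 0 counts against 70, 41 and 2 (log2 3.05, adjusted p = 0.235). Bnc1 had 330, 109 and 75 counts against 784, 991 and 198 (log2 1.95, adjusted p = 0.220). Both also had shKitl replicate 3 below shCtrl replicate 1.

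Without shKitl replicate 3, edgeR called Upk3b (log2 5.08, adjusted p = 0.0228), Gpm6a (3.90, 0.0228), Nkain4 (3.38, 0.0280), Upk1b (3.59, 0.0415) and Bnc1 (2.37, 0.0472), and also Wt1. Wt1 passed the filter of that fit only through its 2 remaining shKitl libraries. Replicate 3 was the lowest shKitl library for each of these genes, so the calls describe the libraries that remained and are not separate evidence. In that fit 1.76% of all tested genes were called, 1.44% as higher and 0.325% as lower. By P number, shKitl replicates 1, 2 and 3 are 13, 14 and 15. At P 14, present in both lines, the ratio of shKitl to shCtrl was 15.5 for Upk3b (counting interval 11.9 to 20.5), 6.69 for Gpm6a, 6.10 for Nkain4, 5.68 for Upk1b and 3.33 for Bnc1. At P 15 it was 18 for Upk3b (4.65 to 154, on 38 against 2 counts), 3.43 for Gpm6a, 1.22 for Nkain4 (0.404 to 3.85), 0.379 for Upk1b (0.0361 to 2.32) and 1.72 for Bnc1. Nkain4 and Upk1b were therefore not distinguishable between the lines at P 15. Within a line each P number is 1 library, so that P number and library cannot be told apart.

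**Figure D2:**
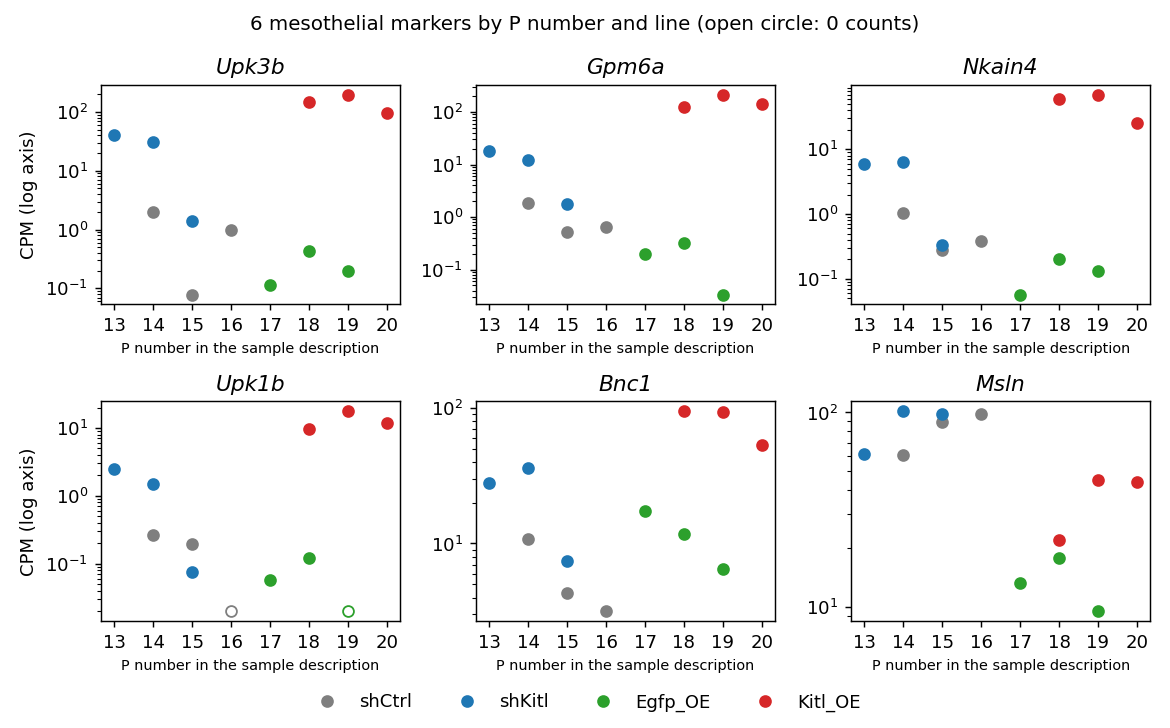
CPM (log axis, scaled per panel) of the 6 tested markers against the P number of the sample description, 1 point per library, coloured by line, with open circles for 0 counts. The shKitl libraries at P 13 and P 14 stand above that at P 15 for Upk3b, Gpm6a, Nkain4, Upk1b and Bnc1, and Kitl_OE stands above Egfp_OE at P 18 and P 19.

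Msln had like group means in both hairpin lines. It stood at 1828, 2270 and 2308 counts in shCtrl and 1727, 2774 and 2624 in shKitl, with overlapping groups. The log2 fold change was 0.07 (95% interval -0.62 to 0.77, adjusted p = 0.931). At P 14 the ratio of shKitl to shCtrl for Msln was 1.68 (95% counting interval 1.59 to 1.79). At P 15 it was 1.10 (1.04 to 1.16), and these intervals cover counting error only. Wt1 had 5, 2 and 1 counts in shCtrl and 32, 17 and 5 in shKitl, which in CPM is 0.165, 0.0788 and 0.0424 against 1.14, 0.620 and 0.187. In CPM these groups did not overlap, and the summed counts of 54 against 8 gave a ratio of 6.51 (95% counting interval 3.08 to 15.8). Without the filter its log2 fold change was 2.66 (adjusted p = 0.148). Non-overlap was found for 19.7% of all tested genes in this comparison. Lrrn4 had 3, 0 and 0 counts against 0, 4 and 1, and Muc16 had 0, 3 and 0 against 0, 3 and 0.

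The 2 Kitl comparisons were set against each other by a test of their difference, (Kitl_OE minus Egfp_OE) minus (shKitl minus shCtrl). Of all tested genes 14% differed, 4.07% upwards and 9.88% downwards. The log2 fold changes of Gpm6a and Nkain4 were larger for Kitl_OE than for shKitl, each against its control, by 6.36 (adjusted p = 0.00508) and 5.79 (adjusted p = 0.0155). Upk3b differed by 4.70 (adjusted p = 0.0636), Upk1b by 4.70 (adjusted p = 0.0773), Msln by 1.37 (adjusted p = 0.0683) and Bnc1 by 0.80 (adjusted p = 0.555), none of which passed. The Upk1b value is a description, since that gene passed the count filter only through Kitl_OE. The Nkain4 call was lost without shCtrl replicate 1 (4.97, adjusted p = 0.0562) and, in the fit of all genes with any count, at 5.83 (adjusted p = 0.0719).

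Both control lines were also compared, as Egfp_OE minus shCtrl, which shares libraries with each comparison above. Msln was lower in Egfp_OE, by 2.61 on the log2 scale (SE 0.341, adjusted p = 0.0172), where 1.25% of all tested genes were called, 0.511% as higher and 0.74% as lower. Its Egfp_OE libraries lay between 9.50 and 17.8 CPM and its shCtrl libraries between 60.2 and 97.8 CPM. The call was lost without Egfp_OE replicate 3 (-2.41, adjusted p = 0.0948), shCtrl replicate 2 (-2.55, 0.0921) or shCtrl replicate 3 (-2.48, 0.0842), and also with the P number as covariate (-3.29, 0.0984) or only these 2 groups in the fit (-2.64, 0.0984). The 2 lines share no P number, so that line and P number cannot be told apart. None of the other 5 markers passed. Gpm6a differed by -2.47 (adjusted p = 0.162), Nkain4 by -2.19 (0.255), Upk3b by -2.09 (0.323), Upk1b by -1.43 (0.536) and Bnc1 by 0.95 (0.329).

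Set against shCtrl, a comparison added after the values were seen, Kitl_OE held more Upk3b (log2 7.15, adjusted p = 0.00107), Gpm6a (7.29, 0.000147), Nkain4 (6.45, 0.00059), Upk1b (6.31, 0.00125) and Bnc1 (3.71, 0.00148). For Upk1b, which passed the count filter only through Kitl_OE, the p-value is a description. Msln went the other way, at -1.16 (adjusted p = 0.0183), with Kitl_OE libraries at 22.1 to 44.7 CPM against 60.2 to 97.8 CPM in shCtrl. Msln was therefore higher in Kitl_OE than in one control line and lower than in the other. In this comparison 32.3% of all tested genes were called, 15.8% higher and 16.5% lower. The libraries of all 6 markers were apart, as were those of 61.6% of all tested genes (30.1% lower in Kitl_OE). The Msln call was lost without shCtrl replicate 2 (-1.08), shCtrl replicate 3 (-1.01) or Kitl_OE replicate 1 (-0.89).

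**Figure D3:**
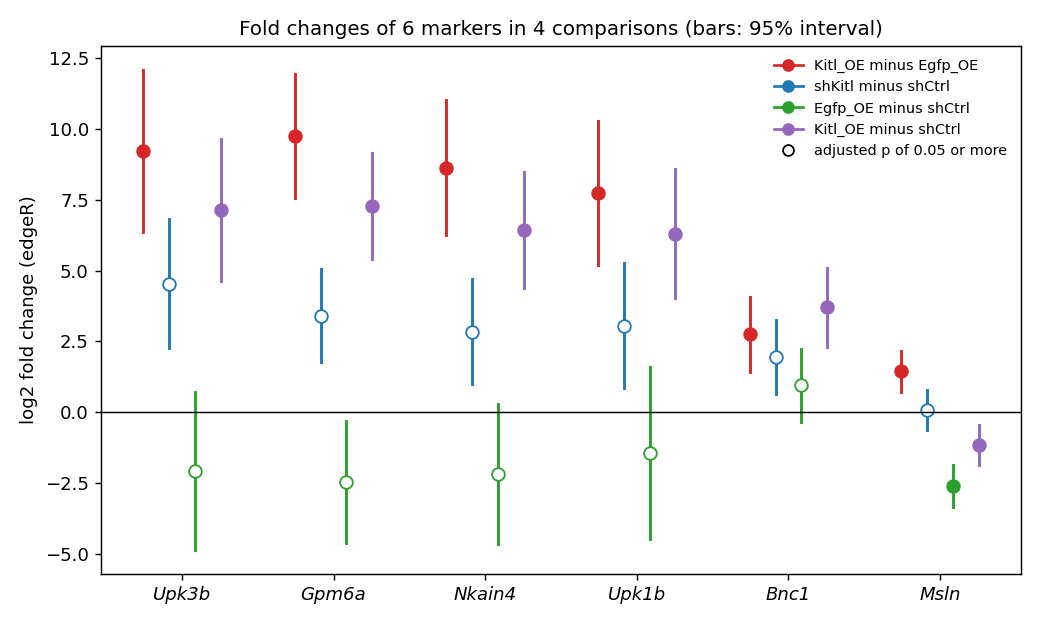
Log2 fold changes of the 6 tested markers with 95% intervals in 4 comparisons, filled where the adjusted p was under 0.05. In Kitl_OE minus Egfp_OE all 6 points are filled and range from 1.45 for Msln to 9.77 for Gpm6a, while no shKitl minus shCtrl point is filled.

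Across the 12 libraries the log2 CPM of Upk3b, Gpm6a, Nkain4 and Upk1b moved together, with Pearson correlations from 0.935 to 0.980. Bnc1 correlated with these 4 at 0.867 to 0.917. Msln correlated with the other 5 at -0.159 to 0.260. The 12 libraries are not independent draws, since they fall into 4 lines, and these values are descriptions. The genes most like the mean profile of the called markers were Lif, a cytokine of the interleukin 6 family (0.992), Bmp4, a bone morphogenetic protein (0.991), Gm2a (0.989), Zfp414 (0.989), Xkr4 (0.985), Ilvbl (0.984), Myrf, a membrane-bound transcription factor of oligodendrocytes (0.983), and Aldh1a1, a retinaldehyde dehydrogenase (0.983). Bnc1 was most like Ephx1 (0.986), Arsa (0.985), Osbpl9 (0.984) and Col1a1 (0.984), and Msln was most like Med26 (0.943), Sema4f (0.930), Chmp4c (0.925) and Dbt (0.924).

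Other genes of mesothelium moved in both directions. Of 25 further mesothelial markers 15 were tested in Kitl_OE minus Egfp_OE, and 4 rose and 4 fell, with a median log2 fold change of 0.09 against -0.07 over all tested genes. Of all tested genes 15.4% were called higher in this comparison and 18.9% lower, which is the background for this list and those below. Pkhd1l1, a large membrane protein related to fibrocystin, had 15, 5 and 10 counts in Egfp_OE and 3557, 3834 and 1382 in Kitl_OE (log2 8.35, adjusted p = 0.000132). Ptgis, the prostacyclin synthase, rose by 2.70 (adjusted p = 0.00378), and Bcam, a laminin receptor, by 2.23 (adjusted p = 0.0375, and 0.0632 to 0.0955 without any of the 6 libraries compared). Igfbp6, an insulin-like growth factor binding protein, fell by 3.10 (adjusted p = 0.00127), Slpi, a protease inhibitor, by 2.94 (0.0287) and Plxna4, a semaphorin receptor, was 5.67-fold lower (0.0152). The Slpi and Plxna4 calls were lost without Kitl_OE replicate 1 (adjusted p = 0.0808 and 0.0662) or replicate 2 (0.0770 and 0.0663), and that of Slpi also without Egfp_OE replicate 1 (0.0707) and with spike-in scaling (0.0681). With only the libraries of shared P numbers, Igfbp6 (0.0713), Slpi (0.139) and Plxna4 (0.104) were not called by edgeR.

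Genes of the apical membrane and of junctions, which give mesothelium its epithelial side, also moved both ways. Of 14 tested, 6 rose and 3 fell, beside 15.4% and 18.9% of all tested genes. With spike-in scaling 5 rose and 1 fell. Crb2, an apical polarity protein, had 11, 4 and 8 counts in Egfp_OE and 1071, 1162 and 787 in Kitl_OE (log2 7.17, adjusted p = 7.4e-05). Ezr, which links membrane to actin, rose by 2.93 (adjusted p = 7.71e-05), its partner Slc9a3r1 by 1.76 (0.000157), the junction protein F11r by 2.51 (0.00192) and N-cadherin Cdh2 by 1.81 (0.000755). Podxl, the apical sialomucin podocalyxin, fell by 5.58 (adjusted p = 1.69e-05), from 571, 227 and 824 counts in Egfp_OE to 10, 11 and 9 in Kitl_OE. The Cdh2 call was lost with only the libraries of shared P numbers (0.0778).

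Transcription factors of the coelomic epithelium were mixed. Of 18 tested, 3 rose and 7 fell, beside 15.4% and 18.9% of all tested genes, so the part that rose was close to that of all genes. With spike-in scaling 2 rose and 1 fell. Hand2 rose by 3.85 (adjusted p = 0.000134) and Gata6 by 2.52 (adjusted p = 0.000268), both factors of the lateral mesoderm. Tbx20, a T-box factor, fell by 4.56 (adjusted p = 0.000296), with 131, 43 and 74 counts in Egfp_OE and 0, 5 and 4 in Kitl_OE. Barx1 (-1.26, adjusted p = 0.0457), Nr2f1 (-1.19, 0.0112) and Nr2f2 (-0.80, 0.0026) also fell, and these 3 calls were lost with spike-in scaling. With a library left out, Barx1 kept its call without Egfp_OE replicate 3 or Kitl_OE replicate 3 and lost it without any of the other 10 (adjusted p = 0.054 to 0.134). Of 14 genes linked to the change from mesothelium to mesenchyme 3 rose (Acta2, 4.23, adjusted p = 0.00215; Tagln, 3.33, 0.00327; Vim, 1.20, 0.000776) and 3 fell (Twist2, -5.29, 4.39e-06; Snai2, -0.87, 0.0172; Tgfbr2, -0.87, 0.0316). The Snai2 call was lost without Kitl_OE replicate 1 or 2 (0.0667 and 0.0713), and that of Tgfbr2 without Egfp_OE replicate 1 or any Kitl_OE library (0.065 to 0.0866). With spike-in scaling Snai2 (0.265) and Tgfbr2 (0.236) also lost their calls, and 3 genes of this list rose and 1 fell. With only the libraries of shared P numbers edgeR did not call Tbx20 (0.0770), Barx1 (0.161), Nr2f1 (0.0945) or Nr2f2 (0.0941). Nor did that fit call Tagln (0.0558), Vim (0.0595), Snai2 (0.148) or Tgfbr2 (0.101).

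With shKitl against shCtrl edgeR called no gene of these 4 lists. DESeq2 called 2.05% of all genes it tested as higher and 0.745% as lower. It called 4 of the other mesothelial markers as higher, Efemp1 (log2 2.29, adjusted p = 0.0126), Cldn15 (2.39, 0.0245), Pkhd1l1 (3.27, 0.0157) and Ptgis (1.64, 0.0496). Of the apical and junction genes it called Cgn (2.03, 9.86e-06) and Crb2 (2.72, 0.00226) as higher and Pdpn (-0.51, 0.0458) as lower, and it called none of the other 2 lists. Without shKitl replicate 3, edgeR called Efemp1, Pkhd1l1, Ptgis, Cgn, F11r, Crb2 and Gata6 as higher (adjusted p = 0.0219 to 0.0465), as it did 1.44% of all tested genes. Cgn, the tight junction protein cingulin, was also called by edgeR in the fit of all genes with any count (log2 2.06, adjusted p = 0.0338).

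The relatives of the markers in the same gene families were measured in the same way. Of 26 family members 13 were tested, and 3 rose (Nkain3 by 4.46, adjusted p = 0.00152; Nkain2 by 2.79, 0.00139; Gpm6b by 1.39, 0.0373). Nkain3 had 6, 12 and 1 counts in Egfp_OE and 136, 121 and 149 in Kitl_OE. Nkain1 fell by 1.93 (adjusted p = 0.00199), Lrrn3 by 2.84 (0.000588), Egr3 by 3.56 and Egr2 by 1.29. The Gpm6b call was lost without Egfp_OE replicate 1 or 3 or any Kitl_OE library (adjusted p = 0.0661 to 0.101). That of Egr2 was lost without Egfp_OE replicate 1 or 2 or any Kitl_OE library (0.0501 to 0.106), and kept without Egfp_OE replicate 3. Egr2 also lost its call with spike-in scaling (0.0971). With only the libraries of shared P numbers edgeR did not call Nkain1 (0.141), Lrrn3 (0.0926), Nkain3 (0.0769), Gpm6b (0.102) or Egr2 (0.156). With shKitl against shCtrl edgeR called none of the family members, while DESeq2 called Nkain3 as higher (log2 4.00, adjusted p = 0.000427). Upk2 had 0 counts in every library, Upk3a at most 1, and Upk1a between 11 and 28. Upk3bl, the neighbouring near copy of Upk3b, had 0, 1 and 0 counts in Egfp_OE and 0, 1 and 1 in Kitl_OE.

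**Figure D4:**
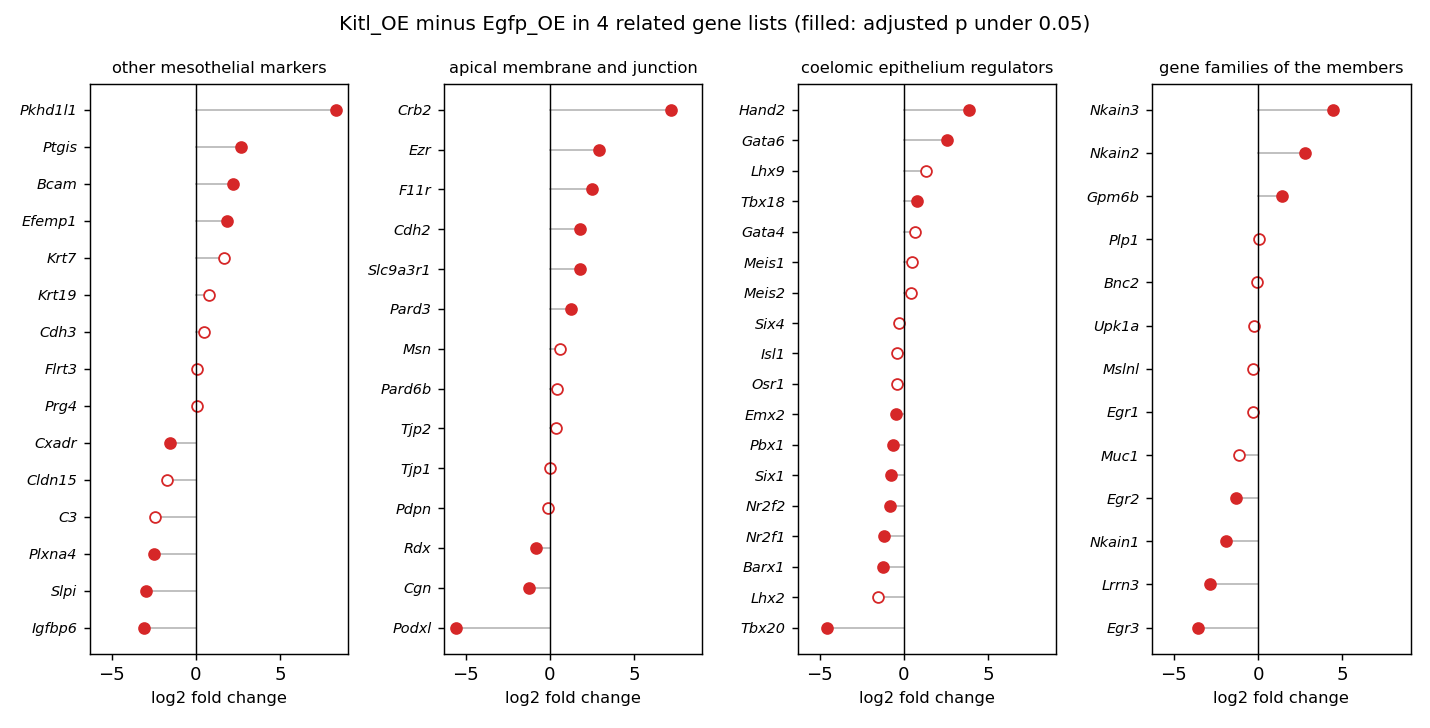
Log2 fold changes in Kitl_OE minus Egfp_OE for the tested genes of 4 lists: other mesothelial markers, apical membrane and junction genes, coelomic epithelium regulators, and gene families of the markers. Filled points had an adjusted p under 0.05. Pkhd1l1 (8.35) and Crb2 (7.17) lie at the right, and Podxl (-5.58) and Tbx20 (-4.56) at the left.

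The nearest protein-coding neighbours were read beside the markers. Birc7, whose annotated end is 762 bases from that of Nkain4, had 0 counts in every Egfp_OE library and 19, 37 and 12 in Kitl_OE (adjusted p = 0.00125). Birc7 passed the count filter only through its Kitl_OE libraries, so its p-value is a description and not separate evidence. B4galt4, 4135 bases from Upk1b, rose by 1.36 (adjusted p = 0.000431), and Crls1, 1520 bases from Lrrn4, by 0.96. Arfgap1, on the other side of Nkain4, rose by 0.49 and Narfl, on the other side of Msln, by 0.47. With spike-in scaling the calls of Crls1 (adjusted p = 0.0528), Arfgap1 (0.401) and Narfl (0.272) were lost. Each was also lost with only the libraries of shared P numbers, and that of Narfl without any single Kitl_OE library (0.0796 to 0.103). Hdgfl3, the neighbour of Bnc1, fell by 5.45 (adjusted p = 1.62e-06). Mslnl, 283 bases from Msln, had 5 to 11 counts in these 6 libraries and did not pass (-0.29, adjusted p = 0.741). Dtx2 beside Upk3b (0.05), Wdr17 beside Gpm6a (0.44) and Sh3gl3 beside Bnc1 (0.36) did not pass either. The strand setting of the counting is unknown here. The antisense gene at Nkain4, Gm14341, had 22 counts in all libraries together.

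Markers of other cell types were measured beside these results. The summed CPM of the 9 mesothelial markers lay between 377 and 631 in Kitl_OE and between 16.5 and 31.1 in Egfp_OE. Urothelial genes summed to 0.739 to 0.916 CPM in Kitl_OE against 1.49 to 2.20 in Egfp_OE, of 7 genes with Upk2 at 0, and 2 of the 3 tested fell and none rose. Both were low: Krt13 had 39 counts over the Egfp_OE libraries against 0 in Kitl_OE, and Trp63 had 38 against 3. The Trp63 call was lost with spike-in scaling (adjusted p = 0.0644 by edgeR). It was also lost without Egfp_OE replicate 1 or 2 or any Kitl_OE library (0.0681 to 0.128). Neuronal and Schwann genes summed to 3.11 to 7.73 CPM in Kitl_OE against 11.5 to 13.9. Of their 6 tested genes 4 fell, among them Gap43 (mean 0.318 against 5.33 CPM) and Syt1 (0.0838 against 3.31), while S100b, a calcium-binding protein of glia, rose by 2.70 (adjusted p = 0.0197, mean 3.46 against 0.541 CPM). The S100b call was lost without Egfp_OE replicate 1 or 3 or Kitl_OE replicate 1 or 2 (0.0526 to 0.0666). With only the libraries of shared P numbers the calls of S100b (0.0944) and Syt1 (0.0572) were lost.

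Stellate and fibroblast genes summed to 17858 to 23195 CPM in Kitl_OE against 5154 to 6676 CPM in Egfp_OE, and the list was mixed: of 11 tested, 6 rose and 2 fell. Much of the sum was collagen, with Col1a1 at a mean of 10547 against 1830 CPM and Col1a2 at 4809 against 1776 CPM. Among the genes that rose, the Dcn and Lum calls were lost without Egfp_OE replicate 1 or 3 (adjusted p = 0.0505 to 0.0708 by edgeR). The Lum call was also lost without Kitl_OE replicate 1 or 2 (0.0514 and 0.0647), and that of Vcam1 with spike-in scaling (0.217). With only the libraries of shared P numbers Dcn (0.101), Vcam1 (0.117) and Vim (0.0595) were not called. The surface proteins Pdgfra, a growth factor receptor, and Thy1 fell by 3.68 (adjusted p = 0.000412) and 2.49 (adjusted p = 0.000481). Endothelial genes summed to 22.4 to 26.6 CPM against 3.79 to 5.55, nearly all of it Kdr, a VEGF receptor (mean 23.3 against 3.61 CPM). The defining endothelial genes stayed near 0, Pecam1 at a mean of 0.159 against 0.165 CPM and Cdh5 at 0.0228 against 0.190 CPM. Blood genes summed to 10.3 to 14.5 CPM against 3.49 to 4.37, most of it Lyz2, the lysozyme of myeloid cells (mean 10.3 against 0.485 CPM). Ptprc, the pan-leukocyte gene, had at most 1 count in any library, and Cd68 stood at a mean of 1.83 against 3.18 CPM (adjusted p = 0.0744). Keratinocyte genes summed to 10.7 to 11.3 against 73.2 to 453, in Egfp_OE mostly Lor (mean 3.55 against 221 CPM), and pancreatic epithelial genes to 7.98 to 14.7 against 61.9 to 90.1, in Egfp_OE mostly Sox9 (mean 2.74 against 66.9 CPM), with Ptf1a, Pdx1, Ins1 and Ins2 at 0. The part of these other cell types in the results was not tested.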

How the data were processed

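PolyA-selected RNA was sequenced in 12 libraries, 3 per group, grouped by the sample titles. The authors deposited raw read counts per gene and TPM values for the same libraries; STAR 2.5.2b, featureCounts, Subread 1.5.2 and DESeq2 are named in the submitters' processing notes, with GRCm38. The sources used here do not give the strand setting or annotation release.

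Main tests used edgeR 4.0.16 (R 4.3.3) on the counts: genes with enough counts by filterByExpr, TMM scaling, a quasi-likelihood fit with 1 coefficient per group over all 12 libraries, and Benjamini-Hochberg adjustment over 15271 genes at 0.05. The biological coefficient of variation was 0.292. ERCC spike-ins (92 entries) stayed out of library sizes. Counting intervals are exact 95% intervals and a group at 0 was set to a floor of 3 counts. Alternatives included DESeq2 1.42.0, limma 3.58.1, spike-in scaling, other filters, the replicate number, P number and each library left out. The scripts were tested on simulated data.

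Named were all 9 members, tested family members, the nearest protein-coding neighbours with values, the most alike genes, and from the mesothelial, apical, coelomic and transition lists up to 6 genes by size past 0.05; the lists for other cell types are given as sums. Members and lists were chosen with earlier results of these data known.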

Additional observations from a re-analysis of the deposited data

Results flagged for a closer look

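The effect of Kitl_OE against Egfp_OE and that of shKitl against shCtrl differed for Gpm6a by 6.36 on the log2 scale (9.77 against 3.40, adjusted p = 0.00508 by edgeR's test of the difference) and for Nkain4 by 5.79 (8.64 against 2.85, adjusted p = 0.0155). In both genes the larger effect was in Kitl_OE. Each effect is read against its own control line. Egfp_OE minus shCtrl was -2.47 for Gpm6a (adjusted p = 0.162) and -2.19 for Nkain4 (0.255), neither called by edgeR. The Nkain4 call on the difference was lost in 2 of 22 alternative settings.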

How the results depend on the processing

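In Kitl_OE minus Egfp_OE 6 markers were called under every setting except libraries with a shared P number, which lost Msln (1.28), and leaving out any library kept 6 to 6. In shKitl minus shCtrl 0 markers were called, against 3 with DESeq2 and 0 to 6 when a library was left out. The 6 came without shKitl replicate 3 and included Wt1, which passed the filter there only through shKitl. The difference had 2 markers, and 4 with spike-ins, 4 with DESeq2, 5 with the P number as covariate, and 2 to 4 with a library left out. For Egfp_OE minus shCtrl 1 marker was called, 0 with the P number as covariate, 0 with only the groups compared, and 0 to 1 with a library left out. Msln in shKitl minus shCtrl ranged from -0.11 to 0.26 with a library left out, and turned to -0.11 without shCtrl replicate 1, -0.05 without shKitl replicate 2 and -0.03 without shKitl replicate 3. With the P number as covariate Upk3b (0.30), Nkain4 (0.39) and Upk1b (1.12) turned in Egfp_OE minus shCtrl. The cause was not tested.

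Same-numbered deviations correlated at 0.15, -0.26 and 0.53 for shKitl and shCtrl and at 0.03, 0.20 and 0.17 for Kitl_OE and Egfp_OE. Those with different numbers ran from -0.61 to 0.56 for the hairpin lines and from -0.18 to 0.11 for the overexpression lines. Whether the replicate numbers pair the libraries was not tested. With the replicate block the markers called were 6, 0, 4 in the difference (against 2) and 1, and all genes called in Egfp_OE minus shCtrl were 82 against 191.

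Over all genes, Kitl_OE minus Egfp_OE called 5236 genes, 2351 with spike-ins and 1282 with shared P numbers. The knockdown called 0, 428 with DESeq2, 12 on log2(TPM + 1), 23 without filter and up to 277 with a library left out. The difference called 2131, 919 with spike-ins, 1327 on log2(TPM + 1) and 1245 to 2842 with a library left out. Egfp_OE minus shCtrl called 191, 10 with spike-ins, 1486 with DESeq2, 327 with voom, 107 on log2(TPM + 0.1), 349 without filter, 0 with the P number or only the groups compared, and 0 to 771 with a library left out. Kitl_OE minus shCtrl called 4932, 2321 with spike-ins, 2739 with the P number, 7593 with only the groups compared and 3016 to 7195 with a library left out.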
